A study of Mus musculus with 2 samples.

Results

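Neuregulins and ErbB receptors are 8 genes, 4 ligands (Nrg1, Nrg2, Nrg3 and Nrg4) and 4 receptors (Egfr, Erbb2, Erbb3 and Erbb4), which were picked by symbol from 55536 annotated genes. Their RNA was measured by total RNA-seq in the left cerebral cortex of female mice of the strain B6CASTF1/J, the F1 hybrid of C57BL/6J and CAST/EiJ, at 2 months of age. The series holds 1 group of 2 libraries, with no treatment, no engineered allele and no control group. The labels call the libraries biological replicates 1 and 2, give both the same donor entry and number the tissue samples separately. Whether they came from separate animals is not stated, so spreads between the 2 libraries may be in part technical, and no p-value is given.

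Neuregulins are EGF-like growth factors, most of them made as membrane proteins and released or displayed by proteolysis. NRG1 and NRG2 bind ErbB3 and ErbB4, whereas NRG3 and NRG4 bind ErbB4. ErbB2 has no known ligand, ErbB3 has little kinase activity of its own, and both signal by pairing with another ErbB protein, while EGFR binds EGF, TGF-alpha and their relatives. In cortex, ErbB4 is known for its role in GABAergic interneurons, ErbB3 for oligodendrocyte-lineage cells, and Nrg1 for synapse formation and myelination.

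Both ErbB4 and NRG1 exist in forms that differ by single exons, and the shares of those forms are reported after the levels of the genes. The exons that set them are shown here in the sense direction, 5′ to 3′, from the GENCODE M21 transcripts on mm10, with the exon in capitals and 12 bases of each neighbouring exon in lower case. In Erbb4, exon 16 of 27 in the leading transcript is the JM-a exon (75 bases, chr1:68290243-68290317, minus strand), which encodes the stretch outside the membrane that metalloproteases can cut. The JM-b exon (45 bases, chr1:68290439-68290483, minus strand) takes its place in the form that resists that cut. The CYT-1 exon (48 bases, chr1:68043908-68043955, minus strand) adds 16 codons to the cytoplasmic tail, with binding sites for a phosphoinositide kinase and for WW-domain proteins. The form without it is CYT-2.
JM-a: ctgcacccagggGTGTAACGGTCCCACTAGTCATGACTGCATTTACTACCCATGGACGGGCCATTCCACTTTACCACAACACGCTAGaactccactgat
JM-b: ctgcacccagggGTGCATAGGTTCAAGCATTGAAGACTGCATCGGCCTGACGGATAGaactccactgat
CYT-1: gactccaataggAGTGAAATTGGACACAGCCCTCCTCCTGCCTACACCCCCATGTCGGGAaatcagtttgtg

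In Nrg1, the end of the EGF-like domain that binds the receptor comes from either the alpha exon (68 bases, chr8:31838261-31838328, minus strand) or the beta exon (59 bases, chr8:31837670-31837728, minus strand). The beta1 exon (24 bases, chr8:31831205-31831228, minus strand) follows the beta exon in the beta1 form. Alpha and beta exons follow the same exon, the last bases of which are the lower-case letters on the left.
Nrg1 alpha: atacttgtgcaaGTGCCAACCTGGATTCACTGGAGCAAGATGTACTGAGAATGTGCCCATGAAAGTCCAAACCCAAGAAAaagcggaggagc
Nrg1 beta: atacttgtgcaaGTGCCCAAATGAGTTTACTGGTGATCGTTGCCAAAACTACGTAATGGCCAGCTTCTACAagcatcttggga
Nrg1 beta1: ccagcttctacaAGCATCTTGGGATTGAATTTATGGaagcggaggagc

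The depth of the libraries was 31196858 expected counts in replicate 1 and 32292150 in replicate 2. Levels are given as TPM, which divides a gene's counts by its length and scales the result to the sum over the table. Of the 10 lists of cell type markers, all genes of the lists for excitatory neurons, inhibitory neurons, oligodendrocytes, their precursors, astrocytes, microglia and endothelium reached 1 TPM in both libraries. Of 4 genes marking Schwann cells only Egr2, which neurons also express, reached 1 TPM, and none of 4 epithelial genes did in both. Of 4 choroid plexus genes 3 did, and Ttr was the gene of these lists called different between the libraries, at 6.12 and 34.29 TPM. In bulk tissue, fewer cells of a type and less RNA per cell cannot be told apart, which holds for every level below.

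Nrg3 had the highest level of the 8 genes and Erbb4, the receptor it binds, the next. Of the ligands, Nrg3 (ENSMUSG00000041014.17, chr14:38368952-39473088, minus strand) had a level of 34.19 TPM in replicate 1 and of 32.63 TPM in replicate 2, from 2367 and 2350 expected counts. Nrg1 (ENSMUSG00000062991.7, chr8:31814551-32884029, minus strand) stood at 10.77 and 10.90 TPM, from 674 and 742 counts. Both libraries lay close together for both genes, and the ranges of Nrg3 and Nrg1 did not overlap.

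Nrg2 (ENSMUSG00000060275.13, chr18:36017652-36197380, minus strand) had a level of 9.92 TPM in replicate 1 and of 5.73 TPM in replicate 2. Its counts were 335 and 306, so the levels differed more than the counts did. The effective length by which the counts were divided was 1653 bases in replicate 1 and 2440 bases in replicate 2. With 1 length for both libraries, the mean of these, Nrg2 came to 8.01 and 6.83 TPM. That calculation was added after the values were seen.

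Nrg4 (ENSMUSG00000032311.17, chr9:55220222-55326844, minus strand), a ligand best known as a factor secreted by fat, was near the limit of detection with 14 and 11 counts, or 0.72 and 0.53 TPM. Its 3′ part overlaps Fbxo22 on the other strand, which had 756 and 736 counts. Whether the counting used the strand is not given in the sources used here, so the few Nrg4 counts are uncertain.

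Summed over the 4 neuregulins, the level was 55.6 TPM in replicate 1 and 49.8 TPM in replicate 2. Nrg3 made up 63.5% ± 2.86 (SD, n = 2) of that sum, Nrg1 20.6% ± 1.78 and Nrg2 14.7% ± 4.48. Nrg4 made up 1.18% ± 0.16.

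Among the receptors, Erbb4 (ENSMUSG00000062209.15, chr1:68032186-69108059, minus strand) had a level of 27.38 TPM in replicate 1 and of 27.40 TPM in replicate 2, from 4012 and 4229 counts. Egfr (ENSMUSG00000020122.16, chr11:16752203-16918158, plus strand) stood at 6.08 and 6.13 TPM, from 868 and 871 counts. Erbb3 (ENSMUSG00000018166.8, chr10:128567523-128589652, minus strand) stood at 2.17 and 2.32 TPM, from 263 and 301 counts. The ranges of these 3 receptors did not overlap.

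Erbb2 (ENSMUSG00000062312.5, chr11:98412470-98437716, plus strand), the receptor that pairs with the others, was the lowest at 0.81 and 0.76 TPM, from 80 and 81 counts. Its last bases overlap Mien1 on the other strand, which had 656 and 641 counts. Summed over the 4 receptors, the level was 36.4 TPM in replicate 1 and 36.6 TPM in replicate 2. Erbb4 made up 75.0% ± 0.21 (SD, n = 2) of that sum, Egfr 16.7% ± 0.04, Erbb3 6.15% ± 0.27 and Erbb2 2.15% ± 0.10.

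From high to low, the order of mean TPM was Nrg3, Erbb4, Nrg1, Nrg2, Egfr, Erbb3, Erbb2 and Nrg4. Nrg2 and Egfr were the only neighbours in this order whose ranges over the 2 libraries overlapped. With 1 length per gene no neighbours overlapped. The second kind of table, made from the reads without the alignments and called read-based here, gave the same order, and there only Erbb2 and Nrg4 overlapped.

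Read-based levels were higher for all 8 means. They were 54.5 and 54.1 TPM for Nrg3, 35.5 and 38.5 TPM for Erbb4, 16.5 and 17.4 TPM for Nrg1 and 15.7 and 14.8 TPM for Nrg2. Egfr had 10.3 and 10.6 TPM, Erbb3 3.20 and 3.45 TPM, and Erbb2 1.28 and 1.14 TPM. Nrg4 had 1.85 and 0.521 TPM from 16 and 10 estimated counts, the widest relative gap of the 8. In these tables Nrg2 did not show the gap between the libraries that its alignment-based level had.

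TPM depends on what else is in the table's sum. Rescaled to the sum over nuclear protein-coding genes, the mean levels were 73.6 TPM for Nrg3, 60.4 TPM for Erbb4, 23.9 TPM for Nrg1 and 17.1 TPM for Nrg2. For Egfr the rescaled mean was 13.5 TPM, for Erbb3 4.95 TPM, for Erbb2 1.73 TPM and for Nrg4 1.37 TPM. All genes of a library are divided by the same sum, so their order within a library could not change.

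**Figure D1:**
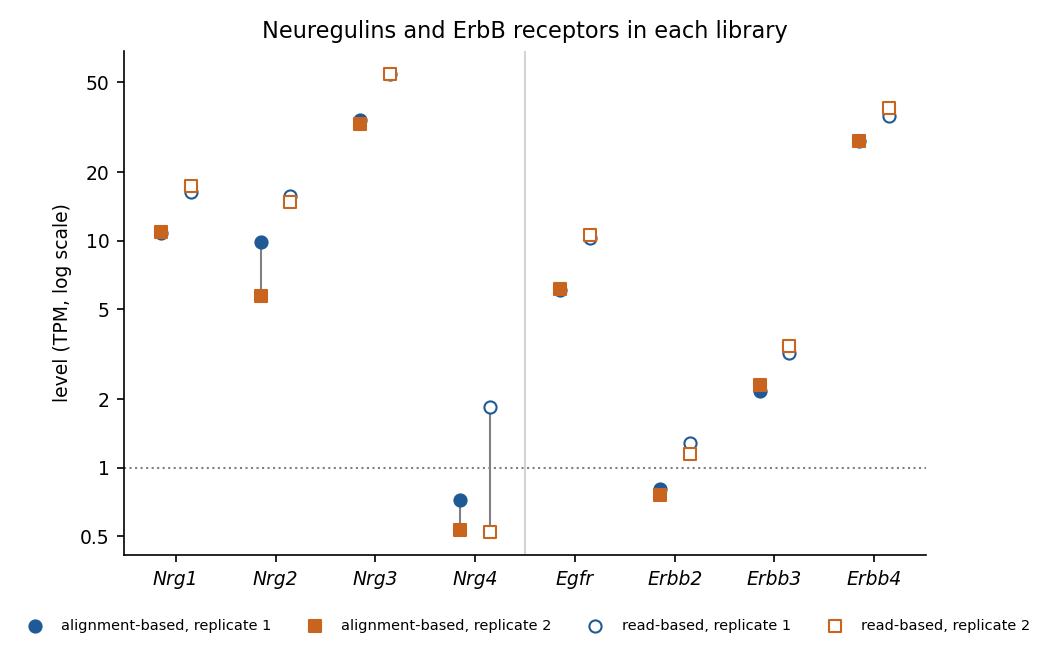
Levels of the 8 genes in each library, on a log axis in TPM, with filled symbols for alignment-based and open symbols for read-based tables and a dotted line at 1 TPM. Nrg3 and Erbb4 are highest in both kinds of table, and the libraries lie farthest apart for alignment-based Nrg2 (9.92 and 5.73 TPM) and read-based Nrg4 (1.85 and 0.521 TPM).

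A level of at least 1 TPM in both libraries was reached by 6 of the 8 genes, all but Erbb2 and Nrg4. Of 22015 nuclear protein-coding genes, 58.8% reached it. Ranked among those coding genes, Nrg3 was higher than 84.1% in replicate 1 and 84.2% in replicate 2, and Erbb4 higher than 80.1% and 81.3%. Erbb2 was higher than 39.0% in both, and Nrg4 higher than 38.3% and 37.0%.

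For none of the 8 genes was a difference between the libraries larger than counting error. The measure was the log2 ratio of replicate 2 over replicate 1 of scaled counts, with an exact Clopper-Pearson 95% interval that covers counting error only. Among genes with a mean count of 10 or more, those whose whole interval was past 2-fold were called, which held for 0 of the 8 genes and for 0.307% of all 18562 such genes. The interval lay off equality for 0 of the 8 genes and for 15.1% of the 18562 genes. In simulated counts with an assumed variation between libraries, it lay off equality for 3967 of 18256 genes with no change. That is a larger share than the 15.1% of the data, so the assumed variation was not matched to these libraries. An interval off equality does not by itself show a difference.

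The tightest interval was that of Erbb4, with a log2 ratio of 0.05 (-0.01 to 0.12). Nrg3 had -0.03 (-0.11 to 0.05), Egfr -0.02 (-0.15 to 0.12) and Nrg1 0.12 (-0.03 to 0.27). For Erbb3 the ratio was 0.17 (-0.07 to 0.42) and for Nrg2 -0.15 (-0.38 to 0.08). The low counts of Erbb2 and Nrg4 gave wide intervals, with ratios of 0.00 (-0.47 to 0.46) and -0.36 (-1.65 to 0.88), so a 2-fold difference was not detectable for Nrg4 at this depth.

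**Figure D2:**
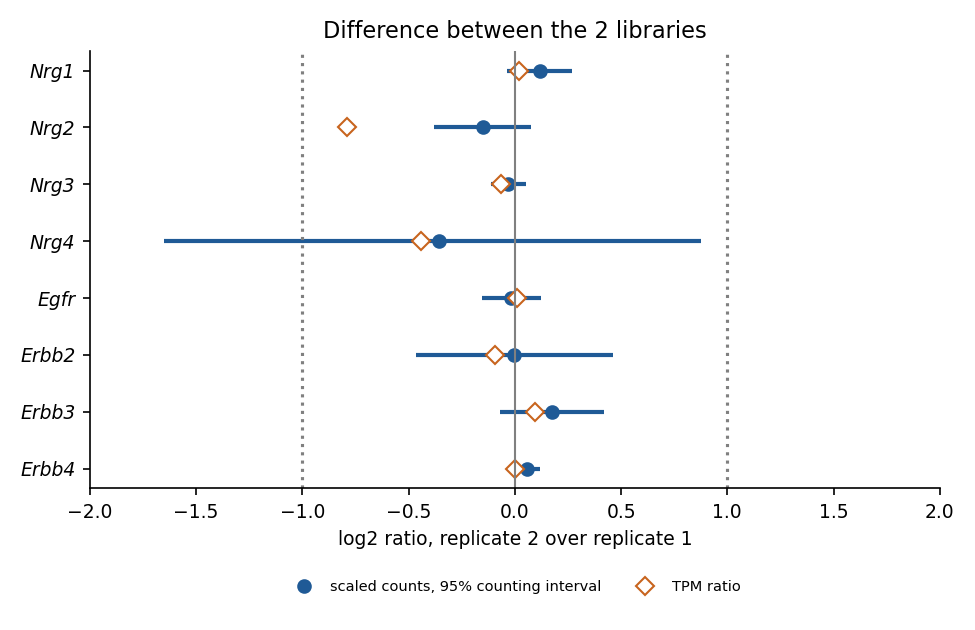
Log2 ratio of replicate 2 over replicate 1 for each gene, as filled points with 95% counting intervals from scaled counts and as open diamonds from TPM, with dotted lines at 2-fold. All 8 intervals span equality, and only for Nrg2 does the TPM ratio (0.578 on the linear scale) lie outside the interval of the counts.

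Of 6 oligodendrocyte genes, 4 lay off equality, against 15.1% of all genes, all 4 higher in replicate 2. So did 3 of 5 astrocyte genes, 2 of 5 genes of oligodendrocyte precursors and 2 of 4 of excitatory neurons, all higher in replicate 2 as well. None of the 7 genes of inhibitory neurons, 4 of microglia and 4 of endothelium did. Egr2 of the Schwann cell list and Cdh1 of the epithelial list lay off equality on the lower side. Intervals narrow as counts rise, and Slc1a2 of the astrocyte list had 127311 and 135365 counts. For the oligodendrocyte list the summed level of the 6 was 603 TPM in replicate 1 and 648 TPM in replicate 2. Erbb3, which that lineage expresses, had a ratio on the same side with an interval that spanned equality, and the part of that cell type in the Erbb3 value was not tested.

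Full-length Erbb4 transcripts were almost wholly of the CYT-2 form, and its juxtamembrane forms could be split only within limits of the annotation. Of its 5 annotated transcripts, the JM-a CYT-2 transcript (ENSMUST00000121473.7, 1292 codons) led with 49.8% of the gene's TPM in replicate 1 and 49.5% in replicate 2. The JM-a CYT-1 transcript (ENSMUST00000119142.7, 1308 codons) had 2.74% and 1.72%. Between these 2 full-length transcripts, the CYT-1 form made up 5.22% in replicate 1 and 3.35% in replicate 2, or 4.28% ± 1.32 (SD, n = 2), from 180 and 121 expected counts. The read-based tables gave 3.71% ± 0.67.

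Transcripts with the JM-a exon alone made up 52.5% and 51.2% of Erbb4 TPM in the 2 libraries, and the JM-b transcript (ENSMUST00000153432.1) made up 42.4% and 43.8%. Read-based shares were 58.0% and 54.1% for JM-a and 38.0% and 41.1% for JM-b. By share of expected counts, however, JM-b made up 12.7% (mean of both libraries). The JM-b transcript is annotated with an incomplete 3′ end and is 2196 bases long, against 12037 bases for the JM-a CYT-2 transcript, whose last exon alone has 8301 bases. Division by length therefore raised its share, and most of its exons occur in the JM-a CYT-2 transcript too, so its count depended on how shared reads were split. No annotated JM-b transcript holds the exons past that incomplete end. Reads over those exons could only be assigned to JM-a transcripts, so the share by counts can be too low. The JM-b share is a model estimate by either measure, not a count of reads over the JM-b exon printed above.

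**Figure D3:**
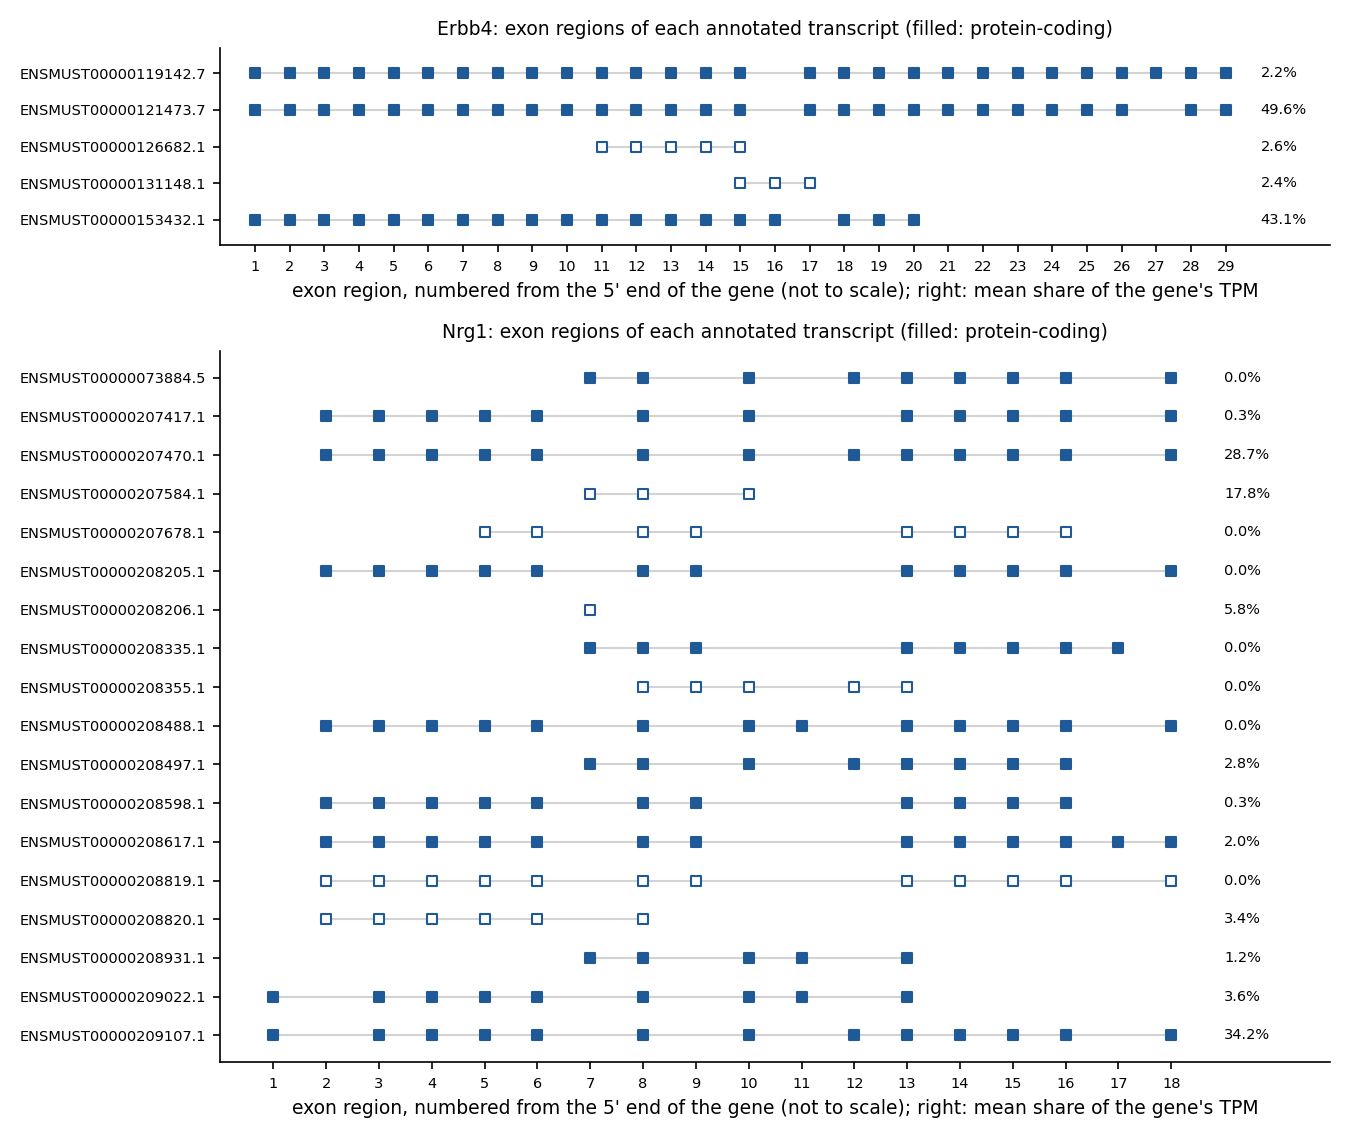
Exon regions (x axis, numbered from the 5′ end and not to scale) in each annotated transcript of Erbb4 and Nrg1, with the mean share of the gene's alignment-based TPM at the right. The JM-b transcript of Erbb4 (43.1%) stops at region 20 of 29, and the 2 highest Nrg1 transcripts (34.2% and 28.7%) differ in these regions only by their first one. Regions do not show length, which is 2972 bases for the first of these 2 and 5415 bases for the second.

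Nrg1 was mainly of the beta1 form and came from several first exons. Its 18 transcripts fall into those that start with the exon of the Ig-like domain form (type I), those that start with the exon of the cysteine-rich domain (type III, which stays tethered to the axon membrane), 2 that start with a distal exon 874 kb upstream of the type I exon, and 2 with none of these, which had 0 counts. The type III exon lies 90.7 kb downstream of the type I exon. The distal exon made up 35.8% and 39.6% of Nrg1 TPM in the 2 libraries, type I 37.6% and 31.8%, and type III 26.6% and 28.5%. By this measure the order of distal and type I differed between the libraries. Type I was above distal in both libraries by read-based TPM, with 41.3% and 34.7% against 32.5% and 29.8%, and by share of expected counts, with 57.4% and 49.5% against 29.9% and 35.8%.

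Most of the type III share came from transcripts that are not protein-coding. A retained-intron transcript (ENSMUST00000207584.1) had 17.0% and 18.5% of Nrg1 TPM, and an unspliced stretch (ENSMUST00000208206.1) had 4.64% and 6.97%. Among protein-coding transcripts alone, type III made up 6.66% and 4.19%, with 48.5% and 54.9% for distal and 44.8% and 40.9% for type I. Read-based coding shares were 14.1% ± 4.78 (SD, n = 2) for type III, 40.8% ± 1.93 for distal and 45.1% ± 2.85 for type I. Coding type III rested on only 12.7 and 14.4 expected counts. By mean share of counts it made up 2.21% of expected and 3.58% of read-based counts of the coding transcripts.

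The leading transcript of Nrg1 was a type I beta1 transcript (ENSMUST00000207470.1, 645 codons) in replicate 1, with 30.5% of TPM, and a distal beta1 transcript (ENSMUST00000209107.1, 652 codons) in replicate 2, with 38.3%. The same switch appeared in the read-based tables, at 30.9% and 29.8%. By counts the type I transcript led in both libraries, with 53.0% and 46.0%. The type I transcript is 5415 bases long with 1935 coding bases, and the distal one 2972 with 1956. Reads over the extra noncoding bases add to the type I count. The split between type I and distal is therefore a model estimate, not a count of reads over the first exons.

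Of the exons shown above, the beta exon was in transcripts holding 88.9% and 88.1% of Nrg1 TPM, and the alpha exon in 2.04% and 2.66%. The rest had neither. In counts this was 628 and 684 for beta and 10.9 and 17.1 for alpha. The beta share includes the retained-intron transcript named above, which is not protein-coding and had 17.0% and 18.5% of Nrg1 TPM. Read-based shares of alpha were higher and less even, at 10.6% and 5.69%. Among coding transcripts with the beta exon, those with the beta1 exon made up 87.7% and 98.2% of TPM, or 92.9% ± 7.37 (SD, n = 2), and 81.4% ± 5.37 in the read-based tables.

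The leading form of Nrg3 held a 72-base exon near its 3′ end (exon 9 of 10 in ENSMUST00000166968.8, chr14:38371277-38371348, minus strand), which adds 24 codons to the cytoplasmic tail. It is printed with the exon in capitals because it belongs to the leading form of the ligand with the highest level.
Nrg3 exon: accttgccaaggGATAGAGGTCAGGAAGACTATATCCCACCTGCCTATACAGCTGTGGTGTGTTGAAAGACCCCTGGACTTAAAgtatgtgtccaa

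The transcript with this exon had 55.7% and 51.3% of Nrg3 TPM. A form that lacks it (ENSMUST00000173780.1) had 13.1% in replicate 1 and 25.2% in replicate 2, and a form with a 24-base extension of another exon instead (ENSMUST00000168810.8) had 10.6% and 3.89%. The estimates of these 2 minor forms moved in opposite directions between the libraries, from 186 to 366 and from 154 to 57.6 counts. In the read-based tables they moved from 22.6% to 29.9% and from 10.7% to 7.27%. Both kinds of table use the same reads, so the second is not separate evidence. How reads shared by the 2 forms were split was not tested. The retained-intron transcript (ENSMUST00000176122.1) held 20.6% and 19.6%. The transcript with the printed exon is 4011 bases long, of which 2139 are coding. The form that lacks the exon has 2137 bases, 2067 of them coding, and the form with the extension 2175, 2091 of them coding. Reads over the longer noncoding stretch could therefore go to the transcript with the exon whichever form they came from. Its share is a model estimate, not a count of reads over that exon.

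Egfr RNA was estimated as a mixture of the full-length receptor and a truncated form. The full-length transcript (ENSMUST00000020329.12, 1210 codons) had 58.2% and 54.6% of the gene's TPM and the truncated transcript (ENSMUST00000102884.9, 655 codons) had 38.4% and 30.9%. The truncated transcript ends in its exon 16, which runs past the end of exon 16 of the full-length transcript with 43 further coding bases (chr11:16887186-16887228, plus strand), which end in a stop codon, and so lacks the transmembrane and kinase parts. It is shown with those bases in capitals.
Egfr truncated end: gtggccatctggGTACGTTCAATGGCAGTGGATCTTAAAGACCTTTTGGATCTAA

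Between these 2 transcripts the truncated form made up 38.0% ± 2.52 (SD, n = 2) of TPM and 28.7% ± 1.68 in the read-based tables, but 14.7% of expected counts, with lengths of 2943 bases for the truncated and 10208 bases for the full-length transcript. Its counts were 136 and 118, against 730 and 741 for the full-length one. A noncoding fragment (ENSMUST00000138518.1) held 3.46% and 14.5% of the gene's TPM, from 2.64 and 11.97 counts. By read-based TPM the fragment held 23.5% and 25.8% of the gene, against 22.9% and 19.2% for the truncated transcript.

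The other receptors were simpler. Erbb3 has 1 annotated transcript (ENSMUST00000082059.6, 1339 codons). The spliced transcript (ENSMUST00000058295.5, 1256 codons) led Erbb2 with 87.7% and 92.1% of TPM, and a transcript that retains an 81-base intron (ENSMUST00000136032.1) had the rest, 10.1% ± 3.15 (SD, n = 2). The read-based tables gave that transcript 42.9% ± 9.68, from 41.8 and 27.7 estimated counts against 8.83 and 6.11 expected counts, so its share depended on the kind of table.

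For Nrg2, the transcript that is complete and coding (ENSMUST00000115713.8, 857 codons) had 5.02 TPM in replicate 1 and 4.50 TPM in replicate 2, a smaller gap than that of the whole gene. An incomplete transcript of 328 bases (ENSMUST00000225173.2) had 3.51 and 0.34 TPM from 16.4 and 1.69 counts. Another of 630 bases (ENSMUST00000115712.9) had 1.39 and 0 TPM. The complete transcript made up 50.6% and 78.7% of the gene's TPM but 90.6% and 95.2% of its counts, and 42.9% and 43.0% of its read-based TPM.

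Nrg4 counts were spread over 13 annotated transcripts, with at most 6 expected counts for any of them. Its leading transcript by TPM, a noncoding one (ENSMUST00000156112.7), rested on 1.58 and 3 counts, and its 2 coding transcripts together on 5.78 counts in replicate 1 and 0 in replicate 2. The read-based tables gave the coding transcripts 0 estimated counts in replicate 1 and 7 in replicate 2. No order among them was readable at this depth.

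Around these 8 genes, 58 genes of ErbB signalling in 5 lists were examined, of which 51 reached 1 TPM in both libraries. Of 56 with a mean count of at least 10, 0 were called beyond 2-fold and 14 lay off equality, 8 higher and 6 lower in replicate 2, which is 25% against the 15.1% over all genes. Their median of mean counts was 1811, against 363 over the 18562 genes, and intervals narrow as counts rise.

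Of the 7 other ligands of the EGF family, 2 reached 1 TPM in both libraries, and none of the 5 with enough counts lay off equality. Tgfa, which encodes the EGFR ligand TGF-alpha, stood at 6.41 and 5.59 TPM. Hbegf, whose product binds EGFR and ErbB4, stood at 4.84 and 4.93 TPM. Egf itself had 0.80 and 0.54 TPM, and Ereg, the gene of epiregulin, had 0 counts in both libraries, which allows up to 3 counts, or 0.0962 and 0.0929 CPM (3 counts of the library's total).

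All 11 genes of proteases, or of subunits of protease complexes, that cut neuregulins, EGF-family ligands or ErbB4 reached 1 TPM. Psenen, a subunit of gamma-secretase, which cuts ErbB4 within the membrane, stood at 40.67 and 36.29 TPM. Bace1, which cuts type III NRG1, stood at 36.10 and 33.05 TPM, and Adam10, a metalloprotease of the cell surface, at 29.78 and 28.79 TPM. Bace2 was the lowest with 4.12 and 2.82 TPM, and 1 gene of the list lay off equality, lower in replicate 2.

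Of 12 regulators of ErbB signalling and turnover, 11 reached 1 TPM in both libraries. The ubiquitin ligases Nedd4 (123.41 and 114.43 TPM), Rnf41 (35.72 and 32.76 TPM), which targets ErbB3, and Cbl (28.12 and 28.36 TPM), which targets EGFR, were highest. Lrig3 was lowest with 0.98 and 1.07 TPM. Off equality lay 2 of the 12, Cbl toward replicate 2 and Nedd4 toward replicate 1.

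Of 20 adaptors and effectors, 19 reached 1 TPM in both. The kinase Map2k1 stood at 136.29 and 122.17 TPM, and lowest was the transcription factor Stat5a (0.78 and 0.87 TPM). Off equality lay 7, of which 4 were higher in replicate 2.

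All 8 postsynaptic and nuclear partners of ErbB4 reached 1 TPM. Dlg4, which encodes the scaffold PSD-95 that binds the tail of ErbB4, stood at 384.97 and 374.16 TPM. Dlg2, a related scaffold, stood at 128.13 and 126.37 TPM, and the corepressor Ncor1 at 124.04 and 128.06 TPM. Yap1, a coactivator that binds ErbB4 fragments, was lowest with 7.77 and 6.87 TPM. Off equality lay 4 of the 8, of which 3 were higher in replicate 2.

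**Figure D4:**
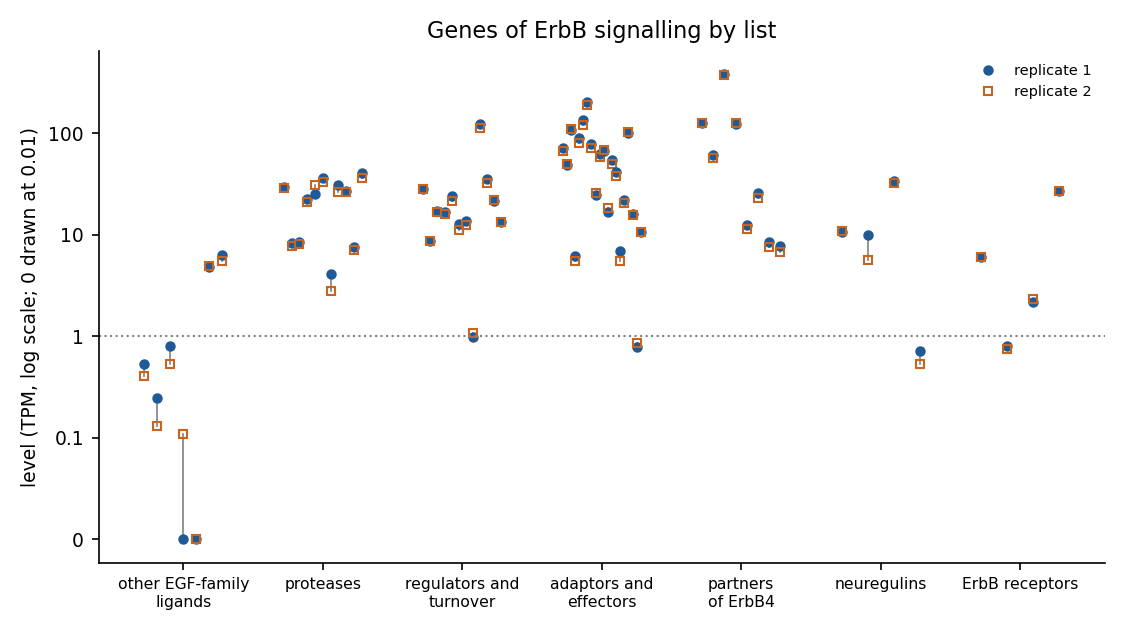
Levels of the genes in 5 lists of ErbB signalling, with the 4 neuregulins and 4 receptors at the right, in TPM on a log axis with 0 drawn at 0.01; circles are replicate 1, squares replicate 2. All genes of the protease list and all partners of ErbB4 lie above the dotted line at 1 TPM, whereas 5 of 7 other EGF-family ligands fall below it.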

How the data were processed

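Total RNA-seq of 2 libraries of 1 group was analysed. The authors deposited expected counts and TPM per gene and transcript from transcriptome alignments, and estimated counts and TPM per transcript from the reads, on mm10 with GENCODE M21, per the file list deposited with each library. Which aligner and counting tools were used is not given in the sources used here. Alleles of the F1 parents are not separated in these tables. Gene models came from GENCODE M21. All features of a table share the TPM sum.

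Expected counts were rounded and scaled with TMM (edgeR 4.0.16, R 4.3.3). Log2 ratios used a prior count of 0.5 and exact 95% intervals (scipy 1.17.1). Intervals and limits reflect counting error alone, because each ratio sets 1 library against 1 other. Reads amplified by PCR carry no molecular identifiers and may repeat a molecule, which the intervals do not take into account. Isoform shares are shares of TPM within a gene, with exon classes from the annotation. The 2 libraries were checked for duplication and differed beyond sampling noise (chi-square 65202, 12842 df, 12843 genes). On simulated counts of replicate 2 against replicate 1 (18456 genes), 0 of 18256 unchanged genes were called beyond 2-fold while 3967 lay off equality. Called were 8 of 50 genes changed 2-fold, 49 of 50 changed 3-fold, 50 of 50 changed 4-fold and 50 of 50 changed 8-fold. The changed genes were drawn from those with a mean count of at least 100, and the variation between libraries was assumed. The rates for changed genes therefore do not cover Erbb2 or Nrg4.

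Named were all 8 genes, up to 3 transcripts per gene with a mean share of at least 10% in either table and those carrying or lacking a described exon, and per pathway list the 3 highest and 1 lowest genes, of which some adaptors and effectors are not reported here. Members and lists were chosen with earlier results of these data known. Alternatives were total-count and DESeq2 1.42.0 scaling, other thresholds, read-based values and each library alone.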

Additional observations from a re-analysis of the deposited data

How the results depend on the processing

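No paired analysis was possible because the series has 1 group. The replicate ratios have no value with a library left out. None of the 8 genes was called, or lay off equality, under total-count or DESeq2 scaling, no filter, a mean count of 100 or read-based counts. Over all genes 57 were called, against 86 with no filter and 12 with a mean count of at least 100. At 1 TPM in both libraries stood 6 of the 8 genes, 7 by read-based TPM, and 8 with TPM rescaled over coding genes or a threshold of 0.5 TPM. That rescaling raised all 8 levels by more than 1.5 times, Nrg3 from 33.4 to 73.6 TPM and Nrg4 from 0.63 to 1.37 TPM. The pathway genes at 1 TPM ranged from 51 to 54. The leading transcript was the same in both kinds of table for 6 genes by the mean of both libraries and for 7 in either library alone. Isoform shares moved most. By read-based TPM, share of expected counts and share of read-based counts (the last added after seeing the data), Erbb4 JM-b was 39.5%, 12.7% and 10.1%, Egfr truncated 28.7%, 14.7% and 9.61%, Nrg1 distal 31.2%, 32.9% and 25.7%, type III 30.8%, 13.7% and 13.2%, and the Nrg3 exon 46.5%, 62.7% and 58.1%. Nrg1 type I was 53.4% and 61.2% by the 2 count shares, Nrg1 alpha 8.13% and 4.68% and the Erbb2 retained intron 42.9% and 39.7% by the 2 read-based measures, and the Nrg3 retained intron 18.3% and 21.1% by read-based TPM and expected counts. Shares of counts are not divided by transcript length; the cause of the other shifts was not tested. CYT-1 stayed within its spread throughout. There were 195 other alternatives, over 42 results for single genes and classes. Of these, 129 stayed within the spread of the libraries or the counting interval and 66 moved. Those 129 include each library alone (34 results for each), which cannot leave the SD of 2 libraries around their mean. Reversals were not scored. Low counts limit Nrg4 and Erbb2.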
